A study of Mus musculus with 29 samples.

Results

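Antibodies act on cells through receptors for their constant part, the Fc region, and the genes of these receptors and their signalling adaptors were examined in kidney, tertiary lymphoid structures (TLS) and lymph nodes of lupus-prone mice. The 10 genes were taken by name from a table of 13982 genes, as a group of related function chosen with earlier results of these data known: the Fc gamma receptors Fcgr1, Fcgr2b, Fcgr3 and Fcgr4, the adaptors Fcer1g and Tyrobp, the IgG and albumin carrier Fcgrt, the B-cell genes Fcrl5 and Fcrla, and the epithelial polymeric immunoglobulin receptor Pigr. All 10 were listed in all 14 libraries.

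All mice were (NZBxNZW)F1, a hybrid strain that develops anti-DNA antibodies and a kidney disease resembling lupus nephritis. From proteinuric mice, which had passed from antibody production to protein loss through the kidney, there were 4 kidney libraries (mice H6, H20, H115 and H117, aged 39, 36, 25 and 32 weeks), 3 libraries of TLS (mice H6, H20 and H115) and 3 of lymph nodes (mice H6, H20 and H117). TLS are lymphocyte aggregates that form in inflamed tissue, here dissected by hand from the kidney that also gave the kidney library. There were 3 lymph node libraries of mice labelled antibody positive for under 5 weeks (mice D10, D11 and L25, aged 28, 29 and 18 weeks) and 1 of a young mouse of 4 weeks. RNA of the antibody-positive nodes was isolated with another kit than all other RNA, and these mice were younger than the proteinuric mice that gave nodes, so that kit, age and disease state cannot be told apart between these groups. Each mouse gave 1 library per tissue, and values below are given in the order of mice listed here.

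The libraries held 343825 to 443379 reads, which is shallow: 3 reads, used below as the floor for a gene without reads, were worth 2.36 to 5.32 in the normalized values. Each listed value includes 1 read that the authors added to every count, so that a gene without reads is listed at about 1. Transcripts of 2 ribosomal RNA genes took 55.6% of the reads of the kidney of mouse H117, 31.8% in the lymph node of mouse H6 and 21.3% in the TLS of mouse H115, and at most 5.33% elsewhere. The sum of 7 B-cell markers was 8.11 to 29.5 in kidney, with Ms4a1, Pax5 and Blk at 0 reads, 342 to 501 in TLS and 623 to 938 in proteinuric lymph nodes. The TLS libraries also held tubule and urothelium RNA, with a summed level of 133 to 736 for 5 urothelial markers against 8.87 to 26.7 in kidney and 4.05 to 7.25 in proteinuric lymph nodes. In whole tissue, fewer cells of a type and less RNA per cell cannot be told apart.

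Fcgr1, Fcgr3 and Fcgr4 encode activating IgG receptors of phagocytes, while Fcgr2b encodes the inhibitory IgG receptor and is found on B cells as well as myeloid cells. The activating receptors reach the surface and signal through the common gamma chain, encoded by Fcer1g, whose ITAM motif recruits the kinase Syk. Tyrobp encodes DAP12, a sister adaptor with an ITAM that serves other myeloid and NK-cell receptors. In lupus nephritis, immune complexes in the kidney and lymphoid tissue can engage these receptors on macrophages, dendritic cells and neutrophils.

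Of the 10 genes, 6 lie on chromosome 1, and Fcrla, Fcgr2b, Fcgr4, Fcgr3 and Fcer1g stand within 317 kb of each other (GRCm38). Fcgr4 (ENSMUSG00000059089) spans chr1:171018920-171029761 on the forward strand, between Fcgr2b (ENSMUSG00000026656, chr1:170958617-170976547) and Fcgr3 (ENSMUSG00000059498, chr1:171051174-171064935), both on the reverse strand. Fcgr1 (ENSMUSG00000015947) lies apart, at chr3:96282909-96293969. Fcer1g (ENSMUSG00000058715) spans chr1:171229572-171234365 on the reverse strand and Tyrobp (ENSMUSG00000030579) chr7:30413760-30417585 on the forward strand. Fcgr3 and Fcgr2b are close paralogs: 9.58% of the 50-base stretches of Fcgr3 transcripts also occur in Fcgr2b, so that reads from these stretches could have been counted for either gene, whereas Fcgr4, Fcgr1, Fcer1g and Tyrobp shared none with another gene.

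The start regions of the 3 activating receptors are shown because these genes, of 1 receptor class, had different levels in the tissues below. Each runs 5′ to 3′ from 250 bases before to 50 bases after the gene start (RefSeq, GRCm38.p6), at chr1:171018676-171018975 on the plus strand for Fcgr4, chr3:96293920-96294219 on the minus strand for Fcgr1 and chr1:171059354-171059653 on the minus strand for Fcgr3, and capitals mark matches to 3 motifs searched on both strands.
Fcgr4: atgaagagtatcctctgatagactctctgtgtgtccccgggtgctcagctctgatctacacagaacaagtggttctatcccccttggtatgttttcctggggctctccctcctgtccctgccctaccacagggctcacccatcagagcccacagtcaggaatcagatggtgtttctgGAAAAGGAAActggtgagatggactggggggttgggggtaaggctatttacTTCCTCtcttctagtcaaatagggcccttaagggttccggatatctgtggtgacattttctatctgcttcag
Fcgr1: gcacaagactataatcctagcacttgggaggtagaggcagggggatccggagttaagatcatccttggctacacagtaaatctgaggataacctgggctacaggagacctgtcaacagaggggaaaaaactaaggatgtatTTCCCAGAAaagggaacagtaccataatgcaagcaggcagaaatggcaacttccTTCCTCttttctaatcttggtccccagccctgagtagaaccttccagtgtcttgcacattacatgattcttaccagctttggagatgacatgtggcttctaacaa
Fcgr3: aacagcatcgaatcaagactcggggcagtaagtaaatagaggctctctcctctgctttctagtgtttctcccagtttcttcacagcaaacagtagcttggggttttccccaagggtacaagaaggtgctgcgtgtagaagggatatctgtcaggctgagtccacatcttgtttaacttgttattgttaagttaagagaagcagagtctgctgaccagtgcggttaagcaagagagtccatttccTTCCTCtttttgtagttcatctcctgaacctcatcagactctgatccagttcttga

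The motif GAGGAA, a core bound by the myeloid factor PU.1, was met on the opposite strand, where it reads TTCCTC, in all 3 start regions, at position -22 of Fcgr4, -55 of Fcgr1 and -6 of Fcgr3, counted from the gene start with negative positions before it. For Fcgr3 the RefSeq start used lies inside the gene span given above, not at its end. Another RefSeq start region of Fcgr3, not shown, placed this match at -15. The interferon-response core GAAANNGAAA was met in Fcgr4 at position -73, and TTCNNNGAA, the core of the STAT-binding GAS element, in Fcgr1 at position -109. These matches do not overlap each other. Among 32851 start regions of the same length, 28.3% held the PU.1 core, 8.30% the GAS core and 3.44% the interferon-response core, and a match describes letters, not a site in use. Of the 9 members with a start region in the table used, Fcrla also held the PU.1 and interferon-response cores and Pigr a GAS core, while Fcgr2b, Fcer1g, Fcgrt and Fcrl5 held none of the 3.

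The first comparison asked how TLS differed from the kidney they formed in. Of the 9 members with enough reads to be tested, 4 were higher in TLS past the threshold, Fcrla, Fcrl5, Fcgr4 and Fcer1g, and none was lower. Over all 7382 genes tested, 8.62% were called higher in TLS and 6.07% lower. The test was limma on log2(value + 1), with Benjamini-Hochberg adjusted p under 0.05 over all genes tested as the threshold, and log2 fold changes below are on that scale, which understates changes of low genes. The 4 proteinuric kidneys, 3 TLS and 3 lymph nodes shared 1 estimate of spread.

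**Figure D1:**
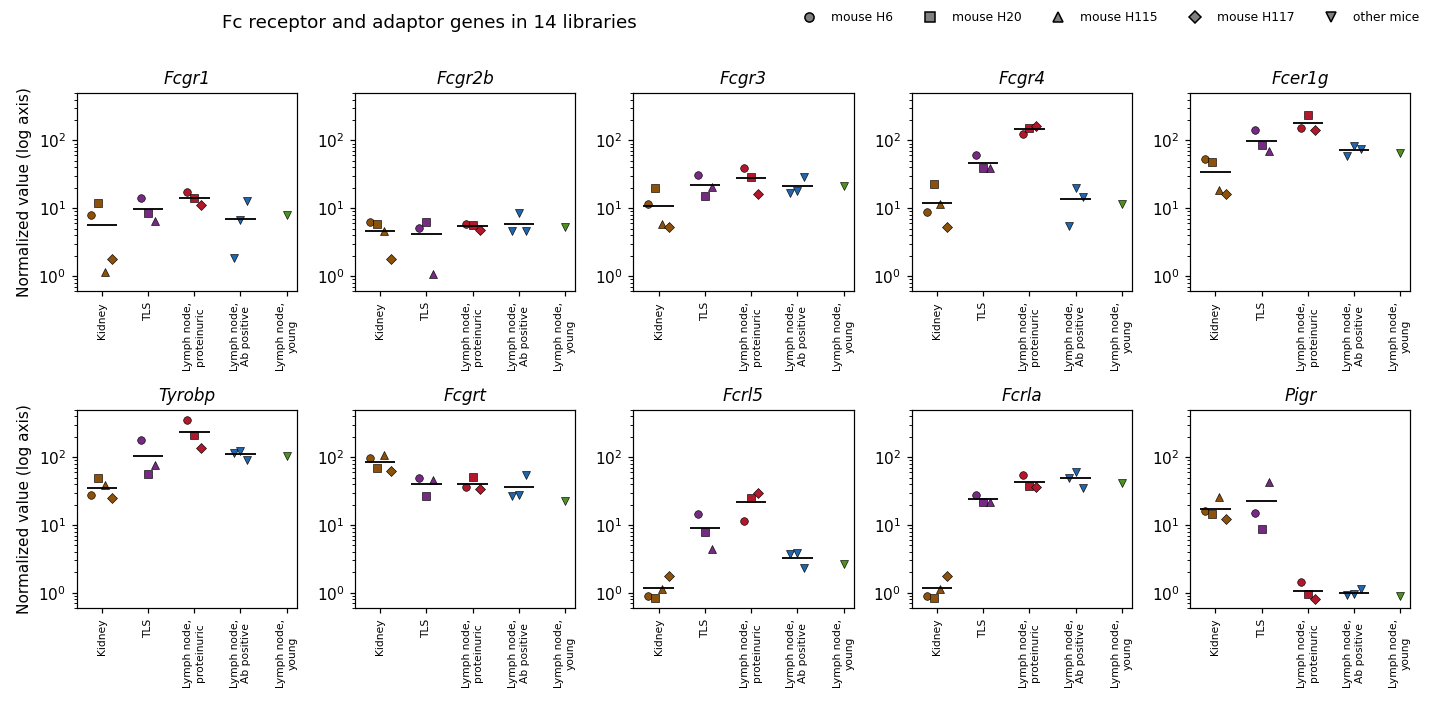
Normalized value (log axis) of each of the 10 genes in all 14 libraries, by tissue and disease state, with the mean of each group of more than 1 library as a line and the mouse given by the marker shape. Fcgr4 sits at 126 to 163 in the 3 proteinuric lymph nodes and at most at 61.1 in any other library, and Pigr and the pair Fcrl5 and Fcrla fall to the level of 0 reads in lymph nodes and in kidney respectively.

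Among the receptors, Fcgr4 encodes the activating receptor that binds IgG2a, IgG2b and IgG2c. Its value was 8.84, 22.8, 11.6 and 5.32 in the kidneys and 61.1, 39.3 and 39.3 in the TLS. Every TLS lay above every kidney, and in each of the 3 mice the TLS was higher than its own kidney, by 6.91-fold in mouse H6, 1.73-fold in mouse H20 and 3.39-fold in mouse H115. The log2 fold change was 1.99 (95% interval 1.09 to 2.89, limma adjusted p = 0.00663).

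Fcgr3, the low-affinity activating receptor, was at 11.5, 20.2, 5.79 and 5.32 in kidney and at 30.5, 14.9 and 20.7 in TLS. The groups overlapped, since the TLS of mouse H20 lay below the kidney of the same mouse. The log2 difference of 1.10 (interval 0.10 to 2.10) did not pass (limma adjusted p = 0.134).

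Fcgr1, the high-affinity receptor, had no reads in the kidneys of mice H115 and H117 and values of 7.96 and 11.8 in those of mice H6 and H20. Its values in TLS were 14.4, 8.65 and 6.54, so that the groups overlapped. The log2 difference was 1.02 (interval -0.21 to 2.26, limma adjusted p = 0.264).

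The inhibitory Fcgr2b had 0 to 8 reads in any library and was too low to be tested among these tissues. It was listed at 6.19, 5.90, 4.64 and 1.77 in kidney, the last being 0 reads, and at 5.09, 6.29 and 1.09 in TLS, the last again 0 reads. These counts cannot show a difference at this depth.

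Of the adaptors, Fcer1g was listed at 53.0, 48.9, 18.5 and 15.97 in kidney and at 143, 85.7 and 68.7 in TLS. All TLS lay above all kidneys, and each TLS was above its own kidney. The log2 fold change was 1.63 (interval 0.60 to 2.67, limma adjusted p = 0.0369). This call was not stable: it held under 11 of 18 other settings, with adjusted p from 0.0105 to 0.167, and was lost without the kidney of mouse H115 or H117 or the TLS of mouse H6 or H20.

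Tyrobp was at 27.4, 49.8, 39.4 and 24.8 in kidney and at 177, 55.8 and 77.4 in TLS. The groups did not overlap, but the TLS of mouse H20 exceeded its kidney by only 1.12-fold while that of mouse H6 exceeded it by 6.47-fold. The log2 difference of 1.40 (interval 0.38 to 2.42) did not pass (limma adjusted p = 0.0658), although it did with DESeq2 (adjusted p = 0.0327) and with values scaled to reads outside ribosomal RNA.

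The B-cell genes were listed at 0 reads in all 4 kidneys. Fcrla, an intracellular Fc receptor-like protein of B cells, was at 28.0, 22.0 and 21.8 in TLS, close together in the 3 mice. Against the value of 3 reads in the shallowest kidney, its mean was at least 4.32-fold higher in TLS (limma adjusted p = 2.88e-05). Fcrl5, an IgG-binding receptor of B-cell subsets, was at 14.4, 7.86 and 4.36 in TLS, on 16, 9 and 3 reads. By the same measure its TLS mean was at least 1.497-fold higher than kidney (limma adjusted p = 0.00541). This bound holds for the mean only, as the 3 reads of the TLS of mouse H115 equal the floor. Fcrl5 reached the level needed for this test only with the lymph nodes in the fit.

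The carriers differed from the receptors in their order. Fcgrt, the neonatal Fc receptor that recycles IgG and albumin in endothelium and epithelium, was at 95.5, 69.2, 109 and 62.1 in kidney and at 50.03, 26.7 and 45.8 in TLS. Every TLS lay below every kidney, a position that 12% of all tested genes shared. Its log2 difference of -1.03 (interval -1.79 to -0.28) did not pass (limma adjusted p = 0.0678), although it did with DESeq2 and with values scaled to reads outside ribosomal RNA.

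Pigr, which carries IgA and IgM across epithelium, was at 15.9, 14.3, 25.5 and 12.4 in kidney and at 15.3, 8.65 and 43.6 in TLS. The groups overlapped, and the log2 difference was 0.13 (interval -0.85 to 1.12, limma adjusted p = 0.889). The highest TLS value was that of mouse H115, and without this library the log2 difference was -0.48. In the TLS of mice H6, H20 and H115 the urothelial markers summed to 406, 133 and 736, in the same order as Pigr. Thick limb and distal tubule markers, at 750, 623 and 1361, and proximal tubule markers, at 181.5, 180.8 and 473, also had this order. The 3 collecting duct markers summed to 170, 79.4 and 69.8, lowest where Pigr was highest. Their part in the Pigr values was not tested.

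Groups did not overlap for 5 members higher in TLS (Fcgr4, Fcer1g, Tyrobp, Fcrl5 and Fcrla) and for Fcgrt in the other direction, against 13.4% and 12% of all tested genes. The summed level of 8 macrophage markers was 174 to 682 in kidney and 957 to 1717 in TLS, with 4 of the 8 higher past the test, and all 7 B-cell markers passed. The part of cell numbers in the members' differences was not tested.

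The second comparison set the lymph nodes of proteinuric mice against the TLS. Of the 9 members tested, 1 was higher in lymph nodes, Fcgr4, and 1 lower, Pigr. The background was 1.69% of genes called higher in lymph nodes and 8.87% called lower. Groups did not overlap for Fcgr4 and Fcrla with the nodes higher, a position of 9.48% of all tested genes, and for Pigr with TLS higher, a position of 17.4%.

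Fcgr4 was at 126, 152 and 163 in the proteinuric lymph nodes (mice H6, H20 and H117), all above the TLS values given above. The log2 fold change was 1.66 (interval 0.70 to 2.62, limma adjusted p = 0.0302). The call held in 8 of 18 other settings. It was lost with edgeR and TMM scaling, with mouse as a replicate block (log2 difference 1.79), without the TLS of mouse H20 or H115 and without any 1 of the 3 lymph nodes, while the direction turned (log2 difference -0.35) when the antibody-positive and young nodes were added to the group.

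Pigr had 0 reads in all 7 lymph node libraries. Its mean in TLS was at least 4.97-fold higher than the value of 3 reads in the shallowest proteinuric node (limma adjusted p = 0.000922). The summed level of 3 collecting duct markers was 69.8 to 170 in TLS and 2.43 to 4.35 in these nodes, and that of 5 urothelial markers 133 to 736 and 4.05 to 7.25.

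The other 7 tested members did not pass between TLS and proteinuric lymph nodes. The differences were not shown to be small: the intervals reached 2.32 for Tyrobp (log2 difference 1.23, limma adjusted p = 0.156), 2.22 for Fcrl5 (1.26, 0.102) and 1.98 for Fcer1g (0.87, 0.348). Fcgrt had close means, 40.8 ± 12.4 (SD, n = 3) in TLS and 40.1 ± 8.79 (SD, n = 3) in the nodes, with an interval of -0.80 to 0.81.

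The third comparison, kidney with lymph node, separated all 9 members tested, 7 higher in lymph nodes and 2 higher in kidney. This stood beside a background of 43.8% of genes called, 20.8% higher in lymph nodes and 23% higher in kidney. It shares its libraries with both comparisons above and adds the following order. Groups did not overlap for 5 members with the nodes higher and 2 with kidney higher, against 23.3% and 25.5% of all tested genes.

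Fcgr4 had the greatest log2 fold change of the 3 Fc gamma receptors tested here (Fcgr2b was too low), 3.66 (interval 2.76 to 4.56, limma adjusted p = 1.86e-05), a call lost only when the antibody-positive and young nodes were added to the group (limma adjusted p = 0.114). Fcgr1 differed by 1.56 (limma adjusted p = 0.0415) and Fcgr3 by 1.42 (limma adjusted p = 0.0254), and in both the groups overlapped. The Fcgr1 call held in 6 of 18 other settings and the Fcgr3 call in 14 of 19. Both were lost without the kidney of mouse H115 or H117 or the node of mouse H6 or H20, and Fcgr1 also without the node of mouse H117. Neither held when the 3 libraries rich in ribosomal RNA were left out, with adjusted p = 0.221 and 0.210 by limma. The Fcgr1 call was also lost with edgeR under both scalings, with DESeq2 and with scaling to reads outside ribosomal RNA. It was lost as well with only the 2 tissues fitted and with all 7 lymph nodes.

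Tyrobp, at 351, 215 and 135 in the nodes, and Fcer1g, at 154, 238 and 143, did not overlap with kidney. Their log2 fold changes were 2.64 (limma adjusted p = 0.00059) and 2.51 (limma adjusted p = 0.000979), and both calls held in all 19 other settings run. Macrophage markers moved the same way, with a summed level of 2285 to 2635 in the nodes and 6 of 8 past the test.

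Fcrla was at least 7.75-fold and Fcrl5 at least 3.94-fold higher in the nodes than in kidney, where neither had a read. Pigr was at least 3.65-fold higher in kidney. Fcgrt fell by 1.03 on the log2 scale from kidney to node (limma adjusted p = 0.0300), with kidney values all above node values of 36.2, 50.2 and 34.0. With mouse as a replicate block this call was lost, at a log2 difference of -0.91, as it was without the kidney of mouse H6 or H115 or the node of mouse H6 or H117.

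**Figure D2:**
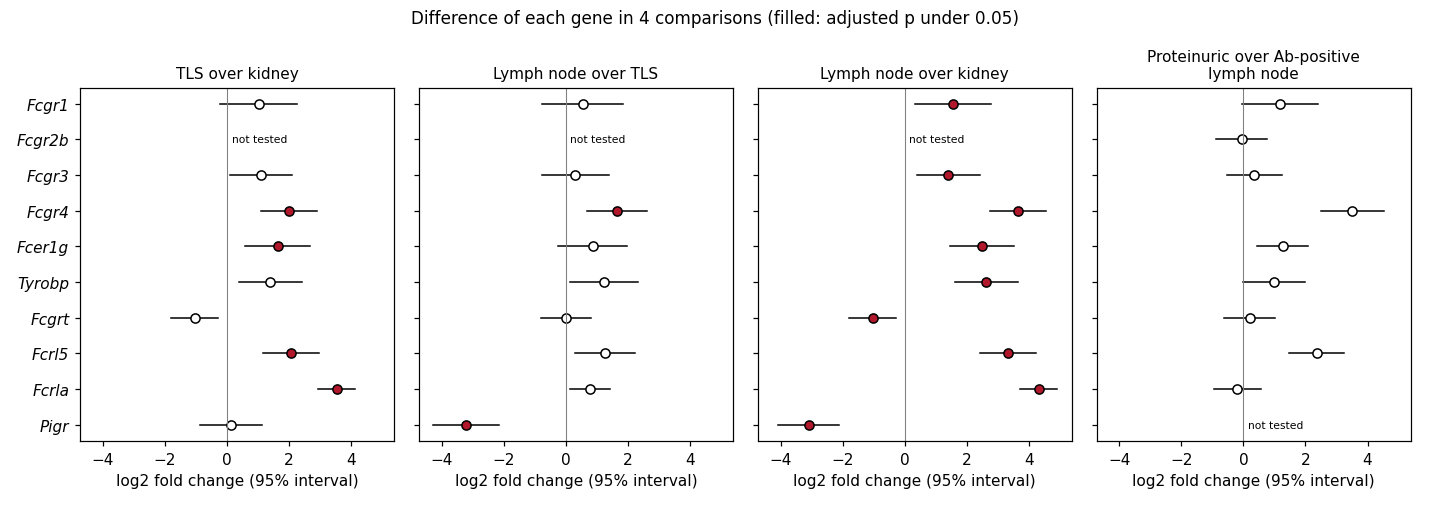
Log2 fold change with its 95% interval (horizontal axis) for each gene (rows) in 4 comparisons, red where the limma adjusted p was under 0.05 and white otherwise. Fcgr4 is positive in all 4 panels, at 1.99, 1.66, 3.66 and 3.50, while Fcgrt and Pigr lie on the kidney side of the lymph node against kidney panel, at -1.03 and -3.09.

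The fourth comparison asked how lymph nodes differed between antibody-positive and proteinuric mice. Fcgr4 differed most among the members, at 5.56, 20.0 and 14.9 in the antibody-positive nodes and 126, 152 and 163 in the proteinuric ones, which rested on 5, 20 and 12 reads against 86, 159 and 201. The lowest proteinuric node was far above the highest antibody-positive node. The group means were 13.5 ± 7.31 (SD, n = 3) and 147 ± 19.1 (SD, n = 3), and the log2 fold change was 3.50 (interval 2.49 to 4.52).

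No gene of 6810 passed the adjusted threshold in this comparison with limma (0% called), where 215 had an unadjusted p under 0.05. With edgeR none passed and with DESeq2 13 did. Fcgr4 had the smallest unadjusted p of the 6810 genes, 3.74e-05, and a limma adjusted p of 0.1. It passed with DESeq2, with no filter on low genes and without the antibody-positive node of mouse D11, and its adjusted p over 14 other settings ran from 2.79e-07 to 0.533.

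Fcrl5 had 3, 3 and 1 reads in the antibody-positive nodes, at values of 3.71, 3.81 and 2.29, and 7, 25 and 36 reads in the proteinuric ones, at 11.6, 24.6 and 29.9. The groups did not overlap. The pooled reads gave a ratio of 9.78 (95% exact counting interval 4.50 to 25.2), which covers counting error and not the spread between mice. By limma the log2 fold change was 2.36 (interval 1.46 to 3.25) with an adjusted p of 0.173, and it was the tenth gene by unadjusted p. Of 14 other settings, DESeq2 alone called it. Fcrl5 reached the level needed for this test only through the proteinuric nodes, as its mean was 3.27 in the antibody-positive ones.

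Fcrla, the other B-cell member, was at 50.05, 60.9 and 35.6 in antibody-positive and 53.6, 36.9 and 36.4 in proteinuric nodes, which overlapped, with a log2 difference of -0.19 (interval -0.94 to 0.56). The summed B-cell markers also overlapped, at 602 to 1245 and 623 to 938.

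The adaptors were higher in every proteinuric node than in every antibody-positive one. Fcer1g was at 58.4, 83.7 and 74.6 in the antibody-positive nodes, and its log2 difference was 1.27 (interval 0.44 to 2.09, limma adjusted p = 0.998). Tyrobp was at 114.9, 124 and 91.8 there, and its log2 difference was 0.98 (interval -0.01 to 1.97, limma adjusted p = 0.998). With Fcgr4 and Fcrl5 these made 4 of the 9 tested members whose groups did not overlap with proteinuric nodes higher, where 2.5% of all tested genes had this position. Of the 4, Fcrl5 was tested only because of its level in the proteinuric nodes. No member had the opposite position, which 6.08% of genes had.

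The remaining receptors overlapped between the disease states. Fcgr3 was at 16.7, 18.1 and 28.7 in antibody-positive and 39.1, 29.4 and 16.2 in proteinuric nodes, a log2 difference of 0.35 (interval -0.53 to 1.24). Fcgr1 was at 1.85, 6.66 and 12.6 and at 17.4, 14.2 and 11.3, a log2 difference of 1.18 (interval -0.04 to 2.40). Fcgr2b was at 4.63, 8.56 and 4.59 and at 5.80, 5.68 and 4.86, a log2 difference of -0.06 (interval -0.88 to 0.76), and Fcgrt differed by 0.20 (interval -0.62 to 1.02).

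The young lymph node stood near the antibody-positive ones where a single library can show it. Fcgr4 was listed at 11.6, Fcrl5 at 2.68 (2 reads), Fcer1g at 65.3 and Tyrobp at 105 in this library. Fcgr4, Fcer1g and Tyrobp lay within the range of the antibody-positive nodes.

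Markers of other cells are given for the same nodes. The 8 macrophage markers summed to 1576 to 2100 in antibody-positive and 2285 to 2635 in proteinuric nodes. Of the 8, only 1 did not overlap between the groups, and 0 had an unadjusted limma p under 0.05. The sum of 5 listed neutrophil and monocyte markers was 38.9 to 59.7 in antibody-positive and 55.8 to 284 in proteinuric nodes. The 4 listed sinus macrophage markers went the other way, at 195 to 428 and 141 to 191. So did the 6 T-cell markers, at 392 to 551 and 278 to 307, of which 3 did not overlap between the groups. The sums of 4 listed dendritic cell markers overlapped, at 62.0 to 114 in antibody-positive and 58.0 to 98.7 in proteinuric nodes. None of these markers passed the adjusted test, and their part in the member differences was not tested.

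Per kilobase of exon, the scale on which genes can be compared, Fcgr4 was the most abundant Fc gamma receptor in the proteinuric nodes at a level of 116 ± 15.5 (SD, n = 3), against 15.6 ± 6.45 for Fcgr3, 5.11 ± 1.05 for Fcgr1 and 0.756 ± 0.0598 for Fcgr2b. In antibody-positive nodes Fcgr4, at 9.93 ± 5.80, and Fcgr3, at 11.6 ± 3.71 (SD, n = 3), lay within each other's spread. In TLS Fcgr4 was at 36.3 ± 10.1 and Fcgr3 at 12.2 ± 4.54 (SD, n = 3), and in kidney at 8.73 ± 6.24 and 5.50 ± 4.18 (SD, n = 4), the latter pair within their spread. Exon lengths of all annotated transcripts were used, so that a gene with a long rarely used exon is understated.

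**Figure D3:**
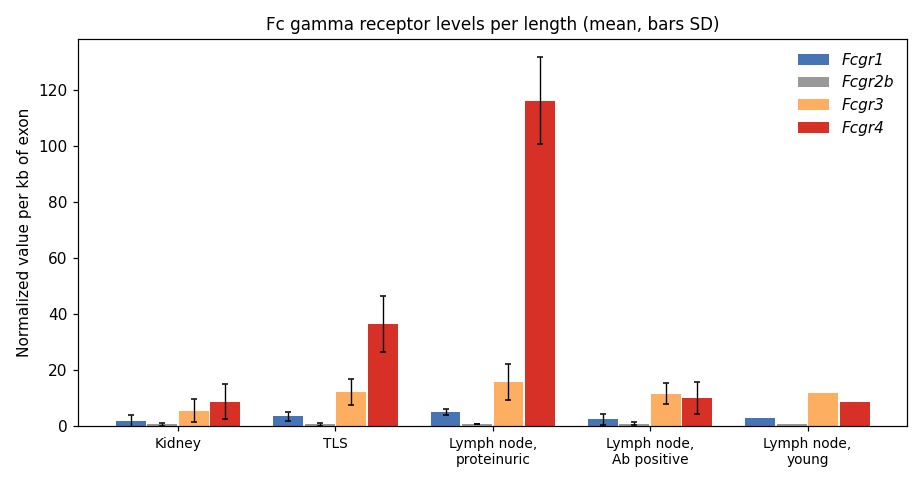
Level of the 4 Fc gamma receptors per kilobase of exon (vertical axis, linear from 0) in each tissue and disease state, as the mean with bars for 1 SD of 4 kidneys and 3 libraries of each other group, and the single young lymph node without a bar. Fcgr4 reaches 116 in proteinuric lymph nodes and 36.3 in TLS and is below 10 in the other 3 groups, where Fcgr3 is of similar height.

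The activating to inhibitory ratio, the log2 of the sum of Fcgr1, Fcgr3 and Fcgr4 over Fcgr2b, was taken in each library as a measure of receptor balance. It was 2.19, 3.22, 2.00 and 2.81 in kidney, 4.38, 3.32 and 5.93 in TLS and 4.98, 5.10 and 5.30 in proteinuric nodes. All TLS and all these nodes lay above all kidneys, but the kidney of mouse H117 had 0 reads of Fcgr2b and of Fcgr1 and 2 each of Fcgr3 and Fcgr4, and the TLS of mouse H115 had 0 of Fcgr2b, so that the read added to every count set much of both ratios. The mean difference was 1.99 from kidney to TLS and 2.57 from kidney to node, each with an exact two-sided permutation p of 0.0571, the smallest that 4 against 3 libraries allow. The difference from kidney to TLS was 1.30 without the TLS of mouse H115, 2.60 without that of mouse H20 and 2.08 without the kidney of mouse H117.

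The permutation took the libraries as independent, although the tissues came from the same mice. Within mice H6, H20 and H115 the ratio of TLS exceeded that of kidney by 2.19, 0.11 and 3.93, and within mice H6, H20 and H117 that of the node exceeded kidney by 2.78, 1.89 and 2.49. An exact permutation of the signs within mice gave p = 0.25 for each, the smallest that 3 mice allow.

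In antibody-positive nodes the ratio was 2.38, 2.38 and 3.61, and in the young node 2.94. The proteinuric nodes were all higher, by 2.33 on average (exact two-sided permutation p = 0.1, the smallest that 3 against 3 allow). With Fcgr3 alone over Fcgr2b the difference was 0.43 (exact permutation p = 0.6), and with Fcgr4 alone it was 3.69 (exact permutation p = 0.1). The denominator rested on 0 to 8 reads a library, so that no firm difference in balance can be read from these ratios.

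Fcer1g over Tyrobp, the balance of the 2 adaptors, did not separate any pair of groups. Its log2 ratio averaged -0.20 ± 0.88 (SD, n = 4) in kidney, 0.05 ± 0.50 in TLS, -0.32 ± 0.75 in proteinuric and -0.61 ± 0.34 in antibody-positive nodes (SD, n = 3 each). Exact permutation p-values of the 4 comparisons ran from 0.6 to 0.914.

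**Figure D4:**
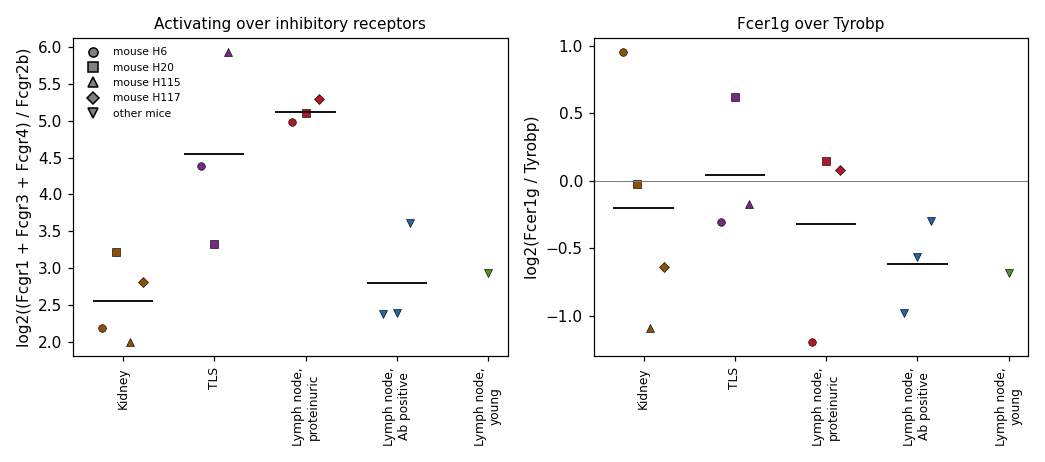
Log2 ratio of the activating receptors Fcgr1, Fcgr3 and Fcgr4 to the inhibitory Fcgr2b (left) and of Fcer1g to Tyrobp (right) in each library, by group, with group means as lines and the mouse given by the marker shape. The ratios of kidney H117 and TLS H115 on the left rest on 0 Fcgr2b reads. On the left the 3 proteinuric lymph nodes lie at 4.98 to 5.30, above all 3 antibody-positive nodes and all kidneys, and on the right all groups overlap.

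The genes with the most similar pattern were sought among 6800 genes as the highest Pearson r of log2(value + 1) over the 14 libraries, which share tissue differences in cell content. Nearest to Fcgr4 were Cd300e (r = 0.955), Clec4a1 (0.924) and Clec12a (0.917), all surface receptors of myeloid cells. Among the nearest to Fcer1g were C1qb (0.958), a chain of complement C1q, and Oas1a (0.943), an interferon-induced enzyme. Fcgr1 had Cxcl14 (0.906), Oas1a (0.902) and Fcgr3 (0.835) as neighbours. Tyrobp was nearest to Rbm3 (0.949), Fkbp11 (0.937) and AI413582 (0.930). The nearest to Fcgr3 were Manf (0.914), Prdx4 (0.914) and Ifitm2 (0.913), and to Fcgr2b Pgam5 (0.882), Parp8 (0.870) and Tor1b (0.862).

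Fcrl5 was nearest to Itgax (0.919), which encodes the integrin chain CD11c, then Cd5l (0.884) and Fcgr4 (0.867). Fcrla followed Lax1 (0.992), Fcrl1 (0.991) and Tnfrsf13c (0.991), the last encoding the B-cell receptor for BAFF. Pigr followed Paqr5 (0.988), Cdh1 (0.987), the epithelial cadherin, and Hoxb8 (0.987), and Fcgrt was nearest to Abcb8 (0.946). Between the 2 B-cell members r was 0.661.

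RNA of the antibody heavy-chain genes, which encode ligands of these receptors, and of the partner gene B2m was measured in the same libraries. Antibody protein was not measured. Of 8 antibody genes and partners tested, 7 were higher in TLS than in kidney and all 8 in proteinuric nodes. Over all tested genes, 8.62% were called higher in TLS than in kidney and 20.8% higher in these nodes than in kidney. For these nodes against TLS the share was 1.69%. The same shares are the background of the lists below. Ighg2c, an IgG subclass bound by the Fcgr4 protein, rose from a mean of 205 in kidney to 8073 in TLS (log2 fold change 5.15, limma adjusted p = 0.000122), and Ighg3 from 70.8 to 2563 (5.24, limma adjusted p = 0.00029). Between antibody-positive and proteinuric nodes none of the 8 passed, and their summed values overlapped, at 21756 to 31679 and 18656 to 33249.

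Of 3 further Fc receptor genes tested, all were higher in TLS than in kidney: Fcrl1 (log2 fold change 2.94, limma adjusted p = 5.73e-05), a B-cell receptor, Fcer2a (2.47, limma adjusted p = 0.00142), the low-affinity IgE receptor CD23, and Trim21 (1.22, limma adjusted p = 0.0238), the cytosolic Fc receptor and lupus autoantigen also called Ro52. Fcer2a and Fcrl1 were also higher in proteinuric nodes than in TLS, by 1.51 and 1.02 (limma adjusted p = 0.0391 and 0.0468).

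Downstream of the ITAM, 11 of 15 tested kinases and adaptors were higher in TLS than in kidney and none lower, with a median log2 difference of 1.74 beside -0.01 over all genes. The largest were Lat2 (2.83), Rac2 (2.81), Syk (2.66) and Vav1 (2.49), each with a limma adjusted p of at most 0.00199. Lymphocytes express several of these genes as well. In proteinuric nodes 13 of 15 were higher than in kidney and 1 lower, and 3 exceeded TLS, namely Fyn, Lcp2 and Was, by 1.49, 1.42 and 1.35.

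Genes of inhibitory signalling, a list not specific to Fcgr2b, moved in the same direction. Of 7 tested, 5 were higher in TLS than in kidney, led by the adaptor Dok3 (2.35) and the phosphatases Ptpn6 (2.13) and Inpp5d (1.66), the latter encoding SHIP1, which the Fcgr2b protein recruits (limma adjusted p = 0.0012, 0.00271 and 0.022). Of 5 subunits of the phagocyte oxidase, which makes superoxide after Fc receptor engagement, 3 were higher in TLS: Ncf1 (2.31), Cybb (1.96) and Ncf4 (1.94). The sum of the 5 was not higher, at 149 to 346 in kidney and 138 to 265 in TLS, as it consisted mostly of Cyba, a subunit that many cell types express, at 130 to 337 in kidney and 81.0 to 192 in TLS.

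Few receptors that can signal with Tyrobp reached the level needed for a test. Of 3 tested among these tissues, Itgb2, the integrin chain CD18, was higher in TLS than in kidney (2.30, limma adjusted p = 0.01), Sirpb1a was higher in proteinuric nodes than in TLS (1.67, limma adjusted p = 0.0226), and with Itgam all 3 were higher in nodes than in kidney. Between the disease states none of 5 passed. Sirpb1a, singled out after its values were seen, had means of 1.95 in antibody-positive and 16.3 in proteinuric nodes, without overlap, with a log2 difference of 2.59 and a limma adjusted p of 0.1.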

How the data were processed

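The 14 libraries were made from poly(A) RNA and sequenced on an Ion Torrent PGM, and the authors mapped and counted the reads in CLC Genomics Workbench 8 with the GRCm38 annotation. RNA was isolated with TRIzol, except that of the antibody-positive lymph nodes (miRNeasy). The 15 whole-kidney samples of the series were not analysed here. The deposited signal is, per gene and library, the read count plus 1 divided by a size factor, as tested on the values: multiplying by the size factor gave whole reads for 100% of values (tolerance 1e-06).

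Values were compared with limma 3.58.1 (R 4.3.3, trend and robust) on log2(value + 1), keeping genes with a mean of at least 5 over the libraries fitted. A fit of the 10 proteinuric libraries served the tissue comparisons and a fit of 6 lymph nodes the disease comparison. Calls had a Benjamini-Hochberg adjusted p under 0.05 over all genes tested. The count models edgeR 4.0.16 and DESeq2 1.42.0 were run as alternatives on the recovered reads, and scripts were tested on simulated data. Ratios were compared by exact two-sided permutation tests in scipy 1.17.1. Equal mouse numbers mark 1 animal. Kidney and TLS of 1 mouse deviated together from their group means (r = 0.351, 0.364 and 0.454 across genes), while kidney and lymph node (-0.335, -0.326 and 0.202) and TLS and lymph node (-0.266 and 0.0254) did not do so in every mouse.

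The members, the gene lists, the markers and the motifs were chosen with earlier results of these data known. All 10 members are described, and from each further gene list at most 4 called genes per comparison with the largest log2 fold change are named. Likeness was ranked as Pearson r, with up to 3 genes named per member and without antibody and T-cell receptor segments and clone-numbered genes. The 10 members and the exon lengths were matched by symbol to GENCODE M21, and 9 of 10 members had a RefSeq start region. Each mouse gave 1 library per tissue, and the limma p-values rest on the spread between libraries within groups, moderated across genes. The main tissue fit took the libraries as independent, although several tissues came from the same mice. A fit with mouse as a replicate block was run as an alternative.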

Additional observations from a re-analysis of the deposited data

Results flagged for a closer look

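The single young lymph node library entered none of the 4 comparisons, and was added to the lymph node group only in a setting with all 7 nodes. In it 8 of the 10 members had more than 3 reads. Their listed values were 8.05 for Fcgr1, 5.37 for Fcgr2b, 21.5 for Fcgr3, 11.6 for Fcgr4, 65.3 for Fcer1g, 105 for Tyrobp, 22.4 for Fcgrt and 41.2 for Fcrla. With 1 library there is no replicate check. No kidney library stood apart from the other 3 by Dixon's test, which was run on the 10 members and the 2 ratios.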

How the results depend on the processing

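The limits are the depth, under which Fcgr2b could not be compared among tissues, 3 or 4 libraries a group, and the tie of kit, age and disease state in lymph nodes. Of the tested members' log2 differences under the alternatives, 545 kept direction and side of the threshold, 40 lost and 12 gained a call, and 16 turned direction; the causes were not tested. The number of members called between kidney and TLS was 4, 6 with DESeq2, and 2 when only these tissues were fitted. Over all genes, 1084 of 7382, 978 of 7382 and 793 of 7188 were called in these fits. When only these tissues were fitted, 8 members were tested, and Fcrl5 was too low to be among them. Between lymph node and TLS the number of members called was 2, and 1 with edgeR and TMM scaling, with scaling to reads outside ribosomal RNA, and without the 3 libraries over 20% ribosomal RNA, a setting chosen after seeing the data. That setting left 3 calls of kidney against TLS and 6 of kidney against lymph node. Over all genes, lymph node against TLS had 780 of 7382 called in the main fit. With edgeR and TMM, scaling outside ribosomal RNA and the 3 libraries left out, 785 of 7382, 757 of 7611 and 408 of 7469 were called. Between the lymph node groups the number of members called was 0, 2 with DESeq2 and 1 with no filter. Leaving out 1 library in turn gave 3 to 5, 1 to 4, 6 to 9 and 0 to 1 members called in the 4 comparisons, the 4 being without the TLS of mouse H6. The number of all genes called then ran from 530 to 1344 between kidney and TLS and from 480 to 977 between lymph node and TLS. The 530 and the 977 were also without the TLS of mouse H6.

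With mouse as a replicate block, the kidney and TLS comparison again had 4 members called, lymph node and TLS had 1 (Fcgr4 lost) and kidney and lymph node had 8 (Fcgrt lost), and Pigr between kidney and TLS turned to -0.014. Of all 7382 genes, 1204 were called between kidney and TLS and 569 between lymph node and TLS in this setting. The antibody-positive mice share no number with the proteinuric ones, so that there was no paired fit of these groups.

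Of the differences that turned direction, that of Pigr from kidney to TLS was -0.60 without the libraries rich in ribosomal RNA and -0.48 to 0.63 with 1 library left out. From TLS to lymph node, adding the antibody-positive and young nodes gave -0.070 for Fcgr1, -0.35 for Fcgr4, -0.12 for Fcrl5 and -0.20 for Fcgrt, and Fcgrt was also -0.22 with edgeR and TMM, -0.033 with edgeR and DESeq2 size factors, -0.031 with DESeq2, -0.074 with scaling outside ribosomal RNA and -0.27 to 0.17 with 1 library left out. Fcgr2b between the lymph node groups was 0.077 with scaling outside ribosomal RNA and -0.19 to 0.20 with 1 library left out. The activating to inhibitory ratio from TLS to lymph node was -0.41 with Fcgr3 alone and -0.030 to 1.27 with 1 library left out. The Fcer1g to Tyrobp ratio then ran from -0.050 to 0.63 for kidney to TLS, -0.60 to 0.068 for TLS to lymph node and -0.42 to 0.31 for kidney to lymph node.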

Other observations

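Fcer1g also encodes the signalling chain of the high-affinity IgE receptor of mast cells, and mast cell genes went in the opposite direction to it between the lymph node groups. The 4 mast cell markers summed to 35.2 to 48.2 in antibody-positive nodes, 34.0 in the young node and 4.05 to 18.0 in proteinuric nodes. Mcpt4, a mast cell chymase, had a mean of 22.2 in antibody-positive and 5.21 in proteinuric nodes (log2 difference -2.19, limma adjusted p = 0.99), and Tpsb2, a tryptase, 11.2 and 3.13 (-1.73, limma adjusted p = 0.998). Neither passed the adjusted test, and in both the groups did not overlap.

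Among genes of granulocytes and monocytes, S100a9, a calcium-binding protein of neutrophils, had 0 reads in the 3 antibody-positive nodes and values of 136, 22.7 and 7.28 in the proteinuric ones (mice H6, H20 and H117), so that 1 library carried most of its mean of 55.4 (limma adjusted p = 0.99). In the young node S100a9 had 7 reads, at a value of 7.16, near that of the proteinuric node of mouse H117. The other 3 tested markers of this list overlapped between the groups, namely S100a8 (means of 3.69 and 31.3), Csf3r (4.42 and 7.68) and Ly6c2 (36.3 and 48.5), each with a limma adjusted p of 0.998. Itgax, the gene nearest to Fcrl5 across libraries, had means of 9.73 and 36.0 without overlap (log2 difference 1.61, limma adjusted p = 0.998). Of the 2 tested dendritic cell markers it is 1, and the other, Ccr7, went the opposite way. Ccr7 had means of 76.6 and 40.5 without overlap (log2 difference -0.83, limma adjusted p = 0.998). Itgam, an integrin chain that signals with Tyrobp, had means of 4.73 and 17.4 without overlap (1.62, limma adjusted p = 0.638). These genes were chosen after their values were seen.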
